A study of Mus musculus with 3 samples.

Results

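Of 5564 T cells sequenced from mouse melanomas, 2570 had a Cd4 identity in the authors' cell annotation, and 338 of these were counted as cycling. The members were chosen by their own counts, a cell being cycling when its UMIs of Mki67, Top2a, Cdk1 and Birc5 summed to at least 2. A UMI (unique molecular identifier) stands for 1 captured transcript. The other 2232 Cd4-identity cells held 0 or 1 such UMI and are called other cells here. The rule read the same counts that are described here, so every difference between cycling and other cells is a description of the cells it chose and was given no test.

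T cells were sorted from subcutaneous B16F10 tumors, a transplanted mouse melanoma line, after tumors of 10 mice had been pooled. Donor T cells, either CD4+ with the congenic marker CD45.1 or CD8+ with CD45.2, had been purified and injected into the tail vein on day 1 after implantation, tumors were taken on day 11, and the labels give the treatment as untreated. The sort kept CD4+ and CD4+CD8+ cells with CD45.1, and CD8+ and CD8+CD4+ cells with CD45.2. The congenic marker, strain and age of the tumor-bearing mice are not given in the sources used here, so whether every sorted cell was an injected one is not known. Each population got its own hashtag, all were pooled into 1 gene expression library read from the 5′ end of transcripts, and 6200 cells were loaded. The annotation gives each cell a hashtag sample number from 1 to 4, and the sources used here do not tie a number to a sorted population. Hashtag numbers 1 to 4 held 173, 75, 35 and 55 cycling cells. With 1 pooled library there is no replicate, so no p-value is given. The 95% intervals are exact and cover counting error only.

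A T cell that divides passes from G1 into S phase, when DNA and histones are made, and then through G2 into mitosis, when chromosomes are condensed, attached to a spindle and separated. Cyclins drive these steps with cyclin-dependent kinases, and inhibitors of these kinases hold resting cells back. In tumors, CD4+ T cells comprise helper cells and Foxp3+ regulatory T cells, which restrain other T cells and need interleukin-2 from them.

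The 4 genes of the rule mark S phase to mitosis. Mki67 encodes the Ki-67 protein that coats mitotic chromosomes. It had 502 CPM, the UMIs of the gene scaled to the total of the group, in cycling cells and 18.0 CPM in other cells. Top2a, the topoisomerase that untangles replicated DNA, had 710 CPM in cycling cells and 21.8 CPM in other cells. Cdk1, the kinase that starts mitosis, had 228 CPM in cycling cells and 4.51 CPM in other cells. Birc5 encodes survivin, a subunit of the chromosomal passenger complex. It had 519 CPM in cycling cells and 2.61 CPM in other cells. At least 1 UMI of Mki67 was found in 81.7% of cycling cells, of Top2a in 82.0%, of Birc5 in 65.4% and of Cdk1 in 57.7%. These shares were fixed by the rule in part and are not a result.

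The promoters of genes that peak in G2 and mitosis often carry a CCAAT box, bound by NF-Y, and a cell cycle homology region, bound by the MuvB core. The 250 bases before the RefSeq transcript start (GRCm38.p6) are shown for the 4 rule genes and for Hmmr, since they show how the letters are arranged in the genes that define these cells. Capitals mark the letters searched for, read on both strands. The first motif was CCAAT. The cell cycle homology region was searched as TTTGAA. A match to E2F, the factor family of S phase genes, was searched as TTCCCGC, with TTGGCGC as its other form, whose reverse can share letters with a CCAAT box.
Mki67: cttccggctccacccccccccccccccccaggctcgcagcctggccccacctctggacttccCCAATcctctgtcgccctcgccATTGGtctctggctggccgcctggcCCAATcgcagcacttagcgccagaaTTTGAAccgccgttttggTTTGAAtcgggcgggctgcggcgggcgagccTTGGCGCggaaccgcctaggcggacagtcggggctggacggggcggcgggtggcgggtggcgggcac
Top2a: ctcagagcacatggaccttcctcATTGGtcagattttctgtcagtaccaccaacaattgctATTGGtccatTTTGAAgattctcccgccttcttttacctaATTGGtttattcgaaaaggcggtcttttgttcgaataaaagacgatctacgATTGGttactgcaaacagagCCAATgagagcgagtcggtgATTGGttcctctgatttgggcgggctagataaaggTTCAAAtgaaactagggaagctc
Cdk1: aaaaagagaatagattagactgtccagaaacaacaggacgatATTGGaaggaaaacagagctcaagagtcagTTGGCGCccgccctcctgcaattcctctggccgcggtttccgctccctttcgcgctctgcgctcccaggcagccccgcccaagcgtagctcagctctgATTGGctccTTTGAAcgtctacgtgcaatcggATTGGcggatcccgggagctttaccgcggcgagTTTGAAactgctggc
Birc5: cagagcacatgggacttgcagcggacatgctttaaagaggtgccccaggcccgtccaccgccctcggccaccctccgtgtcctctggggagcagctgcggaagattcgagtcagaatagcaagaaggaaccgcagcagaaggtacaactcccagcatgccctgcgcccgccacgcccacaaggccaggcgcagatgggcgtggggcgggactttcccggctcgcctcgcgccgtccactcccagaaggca
Hmmr: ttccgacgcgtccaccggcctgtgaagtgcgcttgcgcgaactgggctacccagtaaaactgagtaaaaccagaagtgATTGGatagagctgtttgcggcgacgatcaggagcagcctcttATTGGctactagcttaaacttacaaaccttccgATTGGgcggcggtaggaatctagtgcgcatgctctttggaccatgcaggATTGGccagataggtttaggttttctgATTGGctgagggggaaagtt
The Mki67 window lies on the minus strand at chr7:135716380-135716629 and held 3 CCAAT, 2 TTTGAA and 1 E2F match. The Top2a window at chr11:99024190-99024439, on the minus strand, held 6 CCAAT and 2 TTTGAA matches. The Cdk1 window at chr10:69352913-69353162, also minus, held 3 CCAAT, 2 TTTGAA and 1 E2F match. Birc5, at chr11:117848987-117849236 on the plus strand, had none of these letters, and Hmmr, at chr11:40733438-40733687 on the minus strand, had 5 CCAAT and no other match. Thus 4 of these 5 windows held a CCAAT, and Hmmr, the hyaluronan receptor that also binds spindle microtubules, was the only one of those 4 without TTTGAA.

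Across the lists, CCAAT stood in 49 of 65 mitosis genes that were at least 1.5-fold higher in cycling cells and had an entry in the promoter table (75.4%), and in 36.6% of the 4892 promoters found for all genes tested. TTTGAA stood in 22 of these 65 mitosis promoters (33.8%) and in 11.1% of those of all genes tested. Replication genes held E2F matches more often than TTTGAA. An E2F match stood in 10 of 31 replication genes (32.3%), in 10 of 65 mitosis genes (15.4%) and in 11.0% of all tested, and TTTGAA in 4 of the 31 (12.9%). CCAAT stood in 20 of these 31 replication genes (64.5%). A match is a description of these letters and no sign of binding.

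The members were chosen by UMIs, and so in part by depth, and they differed from other cells in depth. The median cycling cell held 7424.5 UMIs and 2566.5 genes, and the median other cell 3356 UMIs and 1461 genes. Mitochondrial transcripts took a median 0.962% of UMIs in cycling cells and 0.981% in other cells. All levels are therefore given as CPM, and a lower CPM in cycling cells need not mean fewer transcripts per cell. Foxp3, for example, had 80.6 CPM in cycling and 178 CPM in other cells, but a mean of 0.678 UMIs per cycling cell and 0.674 per other cell. By depth alone, cells with more RNA and droplets with 2 cells cannot be told apart. At least 2 UMIs of each of 2 Trbv genes, a sign of 2 T cells, were found in 16.9% (13.03 to 21.3) of cycling and 9.36% of other cells. After each cell was thinned to 2000 UMIs the shares were 3.02% of cycling and 4.54% of other cells.

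The annotated identity was checked on its defining genes. A Cd3e UMI was found in 97.6% of cycling and 96.6% of other cells, and a Cd4 UMI in 86.1% (81.9 to 89.6) of cycling and 61.5% of other cells. With thinning to 2000 UMIs, Cd4 was found in 39.3% of cycling and 43.5% of other cells. Cd8a was found in 9.76% of cycling and 6.94% of other cells at full depth, and 21 cycling cells carried the annotation's Tdp label. Of the markers of other cell types, MHC class II genes were lower in cycling cells in 5 of 6 cases, and summed to 1132 CPM in cycling and 2285 CPM in other cells. This depended on the setting. By the mean of the CPM of single cells 0 of 6 were lower, thinned 1 of 5, and without cells with UMIs of other types 0 of 2. Without cells with 2 Trbv genes, or with a rule of 4 UMIs, 5 of 6 were lower. Macrophage markers were higher in 1 of 9 cases and lower in 3, with sums of 705 CPM in cycling and 1015 CPM in other cells, and dendritic cell markers were lower in 2 of 3. Melanoma genes summed to 29.9 CPM in cycling and 7.47 CPM in other cells, and the fibroblast list had no UMI in cycling cells. By hashtag numbers 1 to 4 the melanoma sum was 6.02, 11.2, 258 and 4.33 CPM in cycling cells. In other cells it was 8.78, 4.45, 3.16 and 11.2 CPM, so number 3 held most of the difference. Lyz2, a macrophage gene, had a UMI in 5.92% of cycling and 4.53% of other cells. C1qa, a complement gene of macrophages, had a UMI in 1.48% of cycling and 1.21% of other cells. The melanoma gene Pmel had one in 0.296% of cycling and 0.0896% of other cells. At least 2 UMIs over the markers of other cell types, with Ctss left out, which had a UMI in 54.1% of cycling and 49.3% of other cells, were found in 10.1% of cycling and 5.15% of other cells. With Ctss counted, the full-depth shares were 34.0% of cycling and 26.5% of other cells. Thinned to 2000 UMIs, also with Ctss, they were 8.76% (5.95 to 12.3) of cycling and 14.1% (12.6 to 15.7) of other cells. The part of such cells in the results was not tested beyond leaving them out. Values without them are given for some results only.

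The threshold of 2 rule UMIs divided a graded series. Summed over the mitosis list without the 4 rule genes, cells with 0 rule UMIs had 4485 CPM, cells with 1 had 4984, cells with 2 had 6674, cells with 3 had 9404, cells with 4 to 7 had 14403, cells with 8 to 15 had 24516, and cells with 16 or more had 39497 CPM. The 396 cells just outside the threshold thus lay close to cells without any rule UMI, and the 78 cells just inside it lay far nearer to them than to the 139 cells at the top. Replication genes took another course. Their sum was 1226 CPM at 0 rule UMIs, 1546 at 1, 2533 at 2, 4746 at 3, 5845 at 4 to 7, 5974 at 8 to 15 and 4984 CPM at 16 or more, so it levelled off while the mitosis sum still grew. Histone genes were flat at 379 CPM with 0 rule UMIs and 370 CPM with 3, and stood at 662 with 4 to 7, 1952 with 8 to 15 and 4216 CPM with 16 or more.

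**Figure D1:**
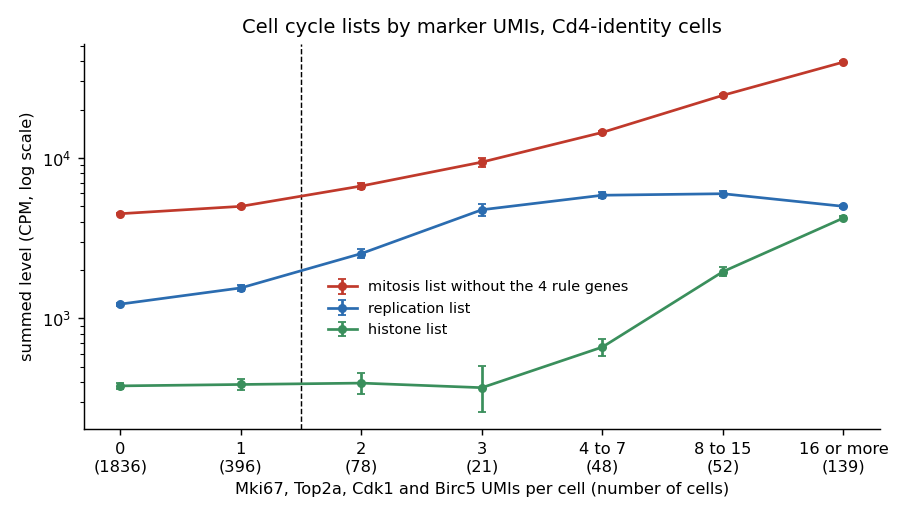
Summed level (CPM, log scale) of the mitosis list without the rule genes, the replication list and the histone list in Cd4-identity cells by their rule UMIs, with 95% counting intervals. The dashed line is the threshold of 2 UMIs. The mitosis sum reaches 39497 CPM at 16 or more rule UMIs, while the replication sum is highest at 8 to 15, with 5974 CPM.

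Pcna and Ccnb1, chosen after their values were seen, were used to split the members. Pcna encodes the sliding clamp of replication, and Ccnb1 the cyclin that works with Cdk1 in mitosis. A Pcna UMI without Ccnb1 was found in 110 of the 338 cycling cells (32.5%), Ccnb1 without Pcna in 51 (15.1%), both in 83 (24.6%) and neither in 94 (27.8%). Cells with Pcna only had 6981 CPM of replication genes and 21326 CPM of mitosis genes. Cells with Ccnb1 only had 2411 CPM of replication and 42360 CPM of mitosis genes. Cells with both had 5368 CPM of replication, 33940 CPM of mitosis and 3875 CPM of histone genes, the highest histone sum of the 4 groups. The 94 cells with neither gene were lowest in mitosis genes, with 11669 CPM, and in histone genes, with 814 CPM. The split genes count in these sums, Pcna among the replication and Ccnb1 among the mitosis genes. Median UMIs per cell were 11178 in cells with both and 4296 in cells with neither, and depth bears on whether either is detected. Among other cells, 0.134% held both genes and 83.2% neither.

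Gene by gene, 6068 genes had at least 200 UMIs over cycling and other Cd4-identity cells. By a rule of size alone, a CPM ratio of at least 1.5, 662 of them were higher in cycling cells (10.9%) and 570 lower (9.39%), and the median log2 ratio was −0.04. Outside the replication, nucleotide synthesis, mitosis, G1 and S phase and histone lists, 507 of 5898 genes were higher (8.6%) and 568 lower (9.63%). The higher calls therefore went beyond the cell cycle lists, and the lower calls lay almost wholly outside them. The 12 highest genes outside the lists included cell cycle genes that the lists did not hold, such as Pclaf, a partner of the sliding clamp (726 CPM in cycling and 13.4 CPM in other cells, 54.1-fold), and the kinetochore gene Knl1 (133 CPM in cycling and 2.49 CPM in other cells, 53.5-fold).

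**Figure D2:**
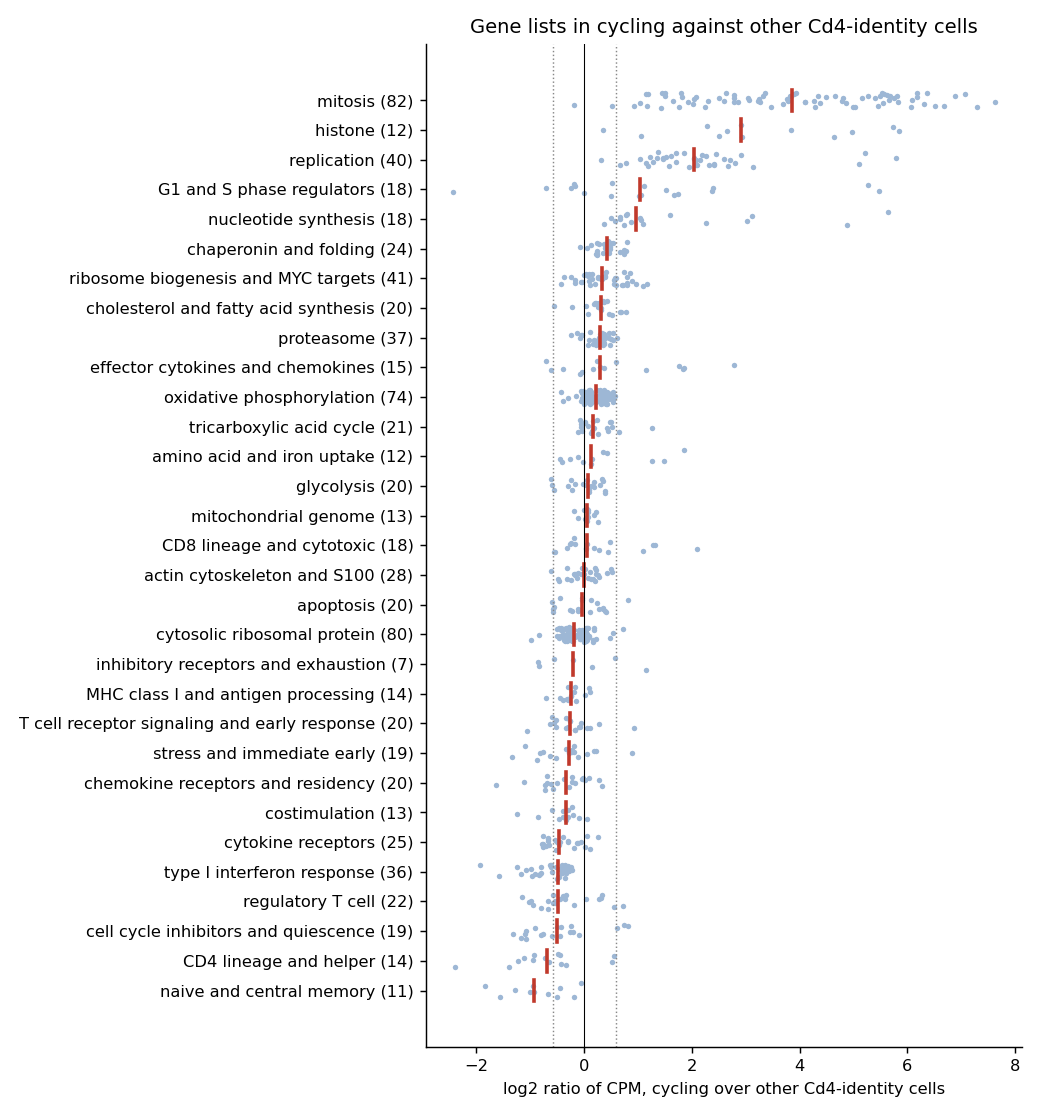
Log2 ratio of CPM in cycling over other Cd4-identity cells for each tested gene of 31 lists (number tested in brackets), with the list median as a red bar and dotted lines at a ratio of 1.5 either way. Mitosis, histone and replication genes lie right of the line at 1.5, and naive and central memory genes have the lowest median, −0.94.

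Of the mitosis list, 80 of 82 tested genes were higher in cycling cells and none lower, with a median log2 ratio of 3.87. The list was built around genes like those of the rule, so its direction is no separate evidence. Ccna2, cyclin A2, had 285, 269, 293 and 277 CPM in the cycling cells of hashtag numbers 1 to 4, and 2.01, 1.21, 1.58 and 2.24 CPM in their other cells. The 4 numbers lay close together within each group and far apart between groups, and the pooled ratio was 158 (95.2 to 284). Esco2, which makes sister chromatids cohere during S phase, had 97.6, 78.5, 88.5 and 115 CPM in cycling cells and 0.502, 0.405, 3.16 and 0.747 CPM in other cells by number, a pooled ratio of 134. Cenpf, a kinetochore protein, had 253 CPM in cycling and 3.203 CPM in other cells, and Aurka, the kinase of the spindle poles, 68.6 CPM in cycling and 0.949 CPM in other cells. The 2 mitosis genes that were not higher were Pttg1, securin, with 125 CPM in cycling and 142 CPM in other cells, and Zwint, a kinetochore partner, at 1.44-fold.

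Of the replication list, 39 of 40 tested genes were higher in cycling cells, with a median log2 ratio of 2.04. Pcna had 221 CPM in cycling and 52.1 CPM in other cells, a ratio of 4.24. A Pcna UMI was found in 57.1% of cycling and in 16.1% of other cells, so the gene was not confined to cells that met the rule. The gene that missed the size rule was Mcmbp, which binds the MCM helicase, at 1.25-fold.

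Nucleotide synthesis genes were higher in 15 of 18 cases and lower in none, with a median of 0.96. Rrm2, the subunit of ribonucleotide reductase made in S phase, had 371, 458, 323 and 550 CPM in cycling cells of hashtag numbers 1 to 4, and 7.78, 6.88, 9.48 and 11.9 CPM in their other cells. The groups did not overlap, and the pooled ratio was 49.9 (39.2 to 64.5). Tk1, thymidine kinase, had 182 CPM in cycling and 6.17 CPM in other cells. Histone genes were higher in 11 of 12 cases, with a median of 2.92, and Hist1h2ae had 707 CPM in cycling and 13.3 CPM in other cells. Copies of replication-dependent histone genes are nearly identical, so how reads were divided among them is uncertain.

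G1 and S phase regulators were mixed, with 10 of 18 higher, 2 lower and a median of 1.04. The 2 lower genes were D-type cyclins, which act before S phase. Ccnd2 had 277, 197, 219 and 238 CPM in cycling cells of hashtag numbers 1 to 4 and 423, 394, 330 and 410 CPM in other cells, so it was lower in cycling cells of every number. Its pooled ratio was 0.612 (0.563 to 0.664), and that of Ccnd1 was 0.185. With every cell thinned to 2000 UMIs, 8 genes of this list had enough UMIs, and their median was −0.19.

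Genes that restrain the cycle or mark rest were lower in 9 of 19 cases and higher in 3, with a median of −0.51. Btg1, an antiproliferative gene of resting lymphocytes, had 247, 277, 400 and 275 CPM in cycling cells and 602, 640, 575 and 608 CPM in other cells of numbers 1 to 4. Every number was lower in cycling cells, and the pooled ratio was 0.445, yet the mean UMIs per cell were 2.29 in cycling and 2.31 in other cells. Txnip, which limits glucose uptake, had 149 CPM in cycling and 372 CPM in other cells. The kinase inhibitors Cdkn2d and Cdkn1a went the other way. Cdkn2d, an inhibitor of CDK4 and CDK6, had 168 CPM in cycling and 100 CPM in other cells. Cdkn1a, the p53 target p21, had 124 CPM in cycling and 70.6 CPM in other cells, a log2 ratio of 0.81 that turned to −0.92 when other cells were weighted to the UMI totals of cycling cells.

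Naive and central memory genes were lower in 7 of 11 cases and higher in none, with a median log2 ratio of −0.94. Il7r, the interleukin-7 receptor that keeps resting T cells alive, had 138, 176, 243 and 206 CPM in cycling cells of hashtag numbers 1 to 4, and 458, 509, 552 and 549 CPM in their other cells. The highest number of the cycling cells lay below the lowest of the other cells. The pooled ratio was 0.337 (0.306 to 0.371), and the log2 ratio of −1.57 became −0.68 with other cells weighted by depth. Tcf7, which encodes the TCF-1 factor of memory T cells and was chosen after its values were seen, had 55.2 CPM in cycling and 135 CPM in other cells. Ccr7, the lymph node homing receptor, had 6.33 CPM in cycling and 22.7 CPM in other cells. With other cells weighted by depth, 5 of 11 naive and central memory genes were lower and 1 higher, with a median of −0.46. Other list counts moved under that weighting too. The cell cycle inhibitors had 2 higher and 4 lower of 19, the CD4 helper list 2 higher and 2 lower of 14, and the cytokine receptors 4 lower of 25. The interferon response list had 11 lower of 36, and the ribosome biogenesis list 6 higher of 41. Over all 6068 genes tested, the weighting gave 761 higher (12.5%) and 473 lower (7.79%).

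Helper cell genes were lower in 8 of 14 cases and higher in none, with a median of −0.69. Ccr6, a receptor of Th17-type cells, had 6.02, 6.404, 15.4 and 6.49 CPM in cycling and 36.6, 38.4, 42.7 and 33.6 CPM in other cells of numbers 1 to 4, and was lower in every number. Il17re, an interleukin-17 receptor chain, had 10.2 CPM in cycling and 26.7 CPM in other cells. Cd4 itself was not called, with 229 CPM in cycling and 289 CPM in other cells. Chemokine receptors were lower in 7 of 20 cases and higher in none, and with other cells weighted by depth 3 were lower and 1 higher. Ccr4, which draws T cells to CCL17 and CCL22, had 23.6 CPM in cycling and 73.3 CPM in other cells, a ratio of 0.321 (0.246 to 0.414).

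Type I interferon response genes were lower in 16 of 36 cases and higher in none, with a median of −0.49. Slfn5 had 44.8, 41.6, 46.2 and 26.0 CPM in cycling cells and 164, 155, 142 and 144 CPM in other cells of numbers 1 to 4, well apart in each, and a pooled ratio of 0.263 (0.216 to 0.318). Slfn5 belongs to the Schlafen family, some of whose members restrain T cell growth. Ifit3b, an interferon-induced antiviral gene, had 17.2 CPM in cycling and 51.8 CPM in other cells. Cytokine receptor genes, among which the signal inhibitor Socs1 was listed, were lower in 9 of 25 cases and higher in none, and Socs1 had 151 CPM in cycling and 258 CPM in other cells. The 2 lowest named genes without a list were histone demethylase Kdm5b, at 10.2 CPM in cycling and 53.3 CPM in other cells, and Tcp11l2, at 9.85 CPM in cycling and 50.2 CPM in other cells.

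Growth and biosynthesis genes outside the cycle lists were higher in part. Ribosome biogenesis and MYC target genes were higher in 13 of 41 cases and lower in none, with a median of 0.33. With other cells weighted by depth, 6 of 41 were higher, beside 12.5% of all genes tested, and the median was 0.17. Nop58, a core protein of the particles that methylate ribosomal RNA, had 94.6 CPM in cycling and 44.3 CPM in other cells. Chaperonin and folding genes were higher in 5 of 24 cases, with a median of 0.42, and Tcp1, a chaperonin subunit, had 224 CPM in cycling and 129 CPM in other cells. Both lists lay above the median of all genes while most of their members missed the size rule. Tfrc, the transferrin receptor for iron uptake, had 44.1, 36.8, 57.7 and 34.6 CPM in cycling cells and 8.53, 12.5, 17.4 and 16.4 CPM in other cells of numbers 1 to 4. The groups did not overlap, and its ratio was 3.63 (2.76 to 4.79). Slc29a1, a nucleoside transporter, had 79.9 CPM in cycling and 28.5 CPM in other cells.

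Energy genes moved little. None of 74 oxidative phosphorylation genes was called, with a median log2 ratio of 0.22. Glycolysis genes were higher in 0 and lower in 2 of 20 cases, with a median of 0.07. In the tricarboxylic acid cycle 2 of 21 genes were higher, among them Fh1, fumarate hydratase, with 68.3 CPM in cycling and 28.6 CPM in other cells. The proteasome list had 1 higher gene of 37 and a median of 0.29. Cytosolic ribosomal protein genes had 1 higher and 2 lower of 80, with a median of −0.18.

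Effector and inhibitory genes differed by gene. Gzmk, a granzyme, had 139, 167, 131 and 136 CPM in cycling cells and 51.2, 67.6, 75.9 and 52.3 CPM in other cells of numbers 1 to 4. Every number was higher in cycling cells, and the ratio was 2.48 (2.17 to 2.83). Lag3, an inhibitory receptor for MHC class II, had 61.2 CPM in cycling and 27.5 CPM in other cells. Pdcd1, which encodes PD-1, had 163 CPM in cycling and 109 CPM in other cells, a ratio of 1.49 that fell just short of the size rule. Of the inhibitory receptor list, 1 of 7 genes was higher and 2 lower. The chemokine genes Ccl1, Ccl3 and Ccl4, the lymphotactin gene Xcl1 and osteopontin gene Spp1 were higher by 6.91-, 3.41-, 3.57-, 4.30- and 3.62-fold in that order, but 10 cycling cells held from 79.4% of the Xcl1 UMIs to 90.6% of the Ccl1 UMIs. Without these 10 cells, chosen after the values were seen, the ratios of Ccl1, Ccl3, Ccl4, Xcl1 and Spp1 were 0.685, 0.509, 0.683, 0.930 and 0.756. The richest cells were left out of the cycling group alone, which can only lower these ratios, and the counting intervals of Ccl1 (0.421 to 1.07), Xcl1 (0.606 to 1.39) and Spp1 (0.503 to 1.11) included 1. Counted as cells, a Ccl4 UMI was found in 12.4% (9.10 to 16.4) of cycling and 3.14% (2.45 to 3.95) of other cells, and thinned to 2000 UMIs in 7.55% (4.95 to 10.9) of cycling and 2.10% (1.52 to 2.82) of other cells.

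Foxp3, the master factor of regulatory T cells, had a UMI in 62 of 338 cycling cells, 18.3% (14.4 to 22.9), and in 511 of 2232 other cells, 22.9% (21.2 to 24.7). The intervals overlap at full depth. Cycling cells held more UMIs per cell. With every cell thinned to 2000 UMIs, Foxp3 was found in 36 of 331 cycling cells, 10.9% (7.73 to 14.7), and in 366 of 2003 other cells, 18.3% (16.6 to 20.04). Thinning left out 7 cycling and 229 other cells. At equal UMIs per cell the intervals no longer overlapped and the cycling cells had the lower share. Before thinning, the mean Foxp3 UMIs per cell given above were nearly level between cycling and other cells. A lower thinned share thus need not mean fewer cells that express Foxp3. With the rule itself applied to thinned counts, the share was 8.84% of 215 cycling cells and 18.1% of 2119 other cells. Cd8-identity cells, which should lack Foxp3, held a UMI in 4.21% of cycling and 2.82% of other cells, with a median of 7589 UMIs in the cycling ones. The Foxp3 shares of Cd4-identity cells lay well above this background.

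By hashtag number, Foxp3 was found at full depth in 22.5%, 13.3%, 17.1% and 12.7% of cycling cells of numbers 1 to 4, and in 24.4%, 19.1%, 22.7% and 26.6% of their other cells. Each number had the lower share in cycling cells, number 1 by the least. The level of Foxp3 was 91.6, 72.0, 73.1 and 60.6 CPM in cycling cells and 174, 163, 177 and 221 CPM in other cells by number, with no overlap. The pooled ratio was 0.452 (0.391 to 0.519), and its log2 value of −1.15 shrank to −0.48, inside the size rule, when other cells were weighted to the depth of cycling cells. Under this weighting macrophage markers were lower in cycling cells in 9 of 9 cases, with a median of −2.36, and MHC class II genes in 6 of 6, with a median of −3.42. The other cells given most weight thus held more transcripts of other types, and the part of these in the weighted values was not tested. Set against the UMIs per cell, the share in cycling cells was higher than in other cells below 4000 UMIs and lower above. The intervals of the groups overlapped in every range. Foxp3 was found in 4 of 7 cycling cells below 2000 UMIs and in 10 of 38 between 2000 and 4000. Between 8000 and 12000 UMIs the share was 11.5% (5.41 to 20.8) of cycling and 29.2% (18.6 to 41.8) of other cells.

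**Figure D3:**
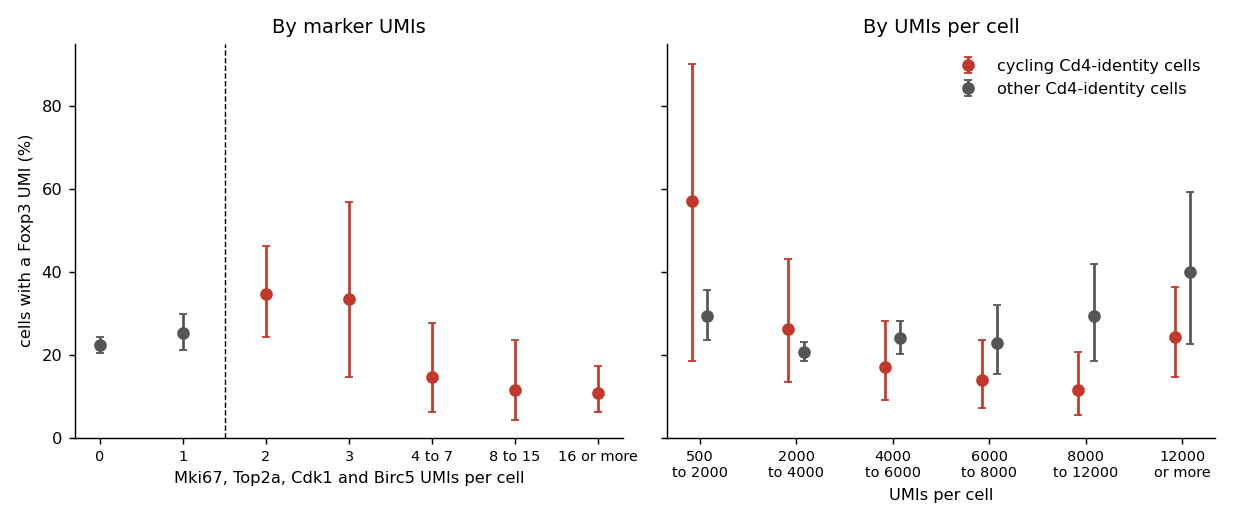
Share of Cd4-identity cells with a Foxp3 UMI (%), by rule UMIs on the left and by UMIs per cell on the right, with exact 95% intervals. Red marks cycling and grey other cells. The share is 34.6% at 2 rule UMIs and 10.8% at 16 or more. At 8000 to 12000 UMIs per cell it is 11.5% of cycling and 29.2% of other cells, with overlapping intervals.

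The Foxp3 share changed along the rule. It was 22.4% at 0 rule UMIs, 25.3% at 1, 34.6% (24.2 to 46.2) at 2, 33.3% at 3, 14.6% at 4 to 7, 11.5% at 8 to 15 and 10.8% (6.17 to 17.2) at 16 or more. The share thus peaked just inside the threshold and was lowest in the cells with most marker UMIs. Median UMIs per cell grew over the same series, being 3307.5 at 0, 4211.5 at 2 and 9083 at 16 or more. Of the 62 Foxp3-positive cycling cells, 34 (54.8%, 41.7 to 67.5) had only 2 or 3 rule UMIs, as had 65 of the 276 Foxp3-negative cycling cells (23.6%, 18.7 to 29.01). With a threshold of 4 rule UMIs, Foxp3 was found in 28 of 239 cycling cells, 11.7% (7.93 to 16.5), and in 545 of 2331 other cells, 23.4%.

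Read the other way, 10.8% (8.40 to 13.7) of Foxp3-positive and 13.8% (12.3 to 15.4) of Foxp3-negative Cd4-identity cells were cycling. With both calls made on thinned counts the shares were 4.73% of Foxp3-positive and 10.1% of Foxp3-negative cells. Among cells below 2 UMIs of other-type markers the Foxp3 share was lower, 8.52% of 223 cycling and 17.3% of 1640 other cells. Of the markers, Ctss, a cathepsin gene, was found in 79.0% of Foxp3-positive and 48.6% of Foxp3-negative cycling cells. Without Ctss among the markers the share was 14.5% of 304 cycling and 22.3% of 2117 other cells.

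Within the cycling cells, Foxp3-positive and Foxp3-negative cells were set against each other over 2278 genes. By the same size rule 137 genes were higher in Foxp3-positive cells (6.01%) and 171 lower (7.51%). Of the regulatory T cell list, 9 of 10 tested genes were higher, Foxp3 itself among them, which chose the groups. Il2ra, the high-affinity interleukin-2 receptor chain, had 394, 233, 570 and 246 CPM in Foxp3-positive and 42.5, 20.4, 17.0 and 43.6 CPM in Foxp3-negative cycling cells of numbers 1 to 4. The groups were far apart in every number, at a pooled ratio of 10.3 (7.89 to 13.5). Ikzf2, which encodes the regulatory T cell factor Helios, had 494, 582, 774 and 574 CPM in Foxp3-positive and 61.5, 50.1, 80.8 and 104 CPM in Foxp3-negative cells. Ctla4, the receptor that takes CD80 and CD86 from other cells, had 568 CPM in Foxp3-positive and 99.1 CPM in Foxp3-negative cells.

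Costimulatory receptors of the TNF receptor family followed, with Tnfrsf9 (4-1BB) at 761 CPM in Foxp3-positive and 112 CPM in Foxp3-negative cells and Tnfrsf4 (OX40) at 1184 CPM in Foxp3-positive and 214 CPM in Foxp3-negative cells. Tnfrsf9 was higher in 3 of 4 numbers, and lower in number 3, where only 6 cells were Foxp3-positive. Of the CD8 lineage and cytotoxic list, 1 of 10 genes was higher and 5 lower in Foxp3-positive cells, and of the effector cytokines and chemokines 1 of 9 was higher and 4 lower. Gzmk had 32.1, 34.9, 0 and 0 CPM in Foxp3-positive and 171, 188, 145 and 152 CPM in Foxp3-negative cells of numbers 1 to 4, a ratio of 0.165 (0.0896 to 0.281). Ifng, interferon gamma, had 15.9 CPM in Foxp3-positive and 103 CPM in Foxp3-negative cells, and Cxcr6, a receptor of tissue-resident T cells, 145 CPM in Foxp3-positive and 514 CPM in Foxp3-negative cells. Gzmb, granzyme B, ran the other way, with 1094 CPM in Foxp3-positive and 480 CPM in Foxp3-negative cells, but was lower in Foxp3-positive cells of number 4.

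**Figure D4:**
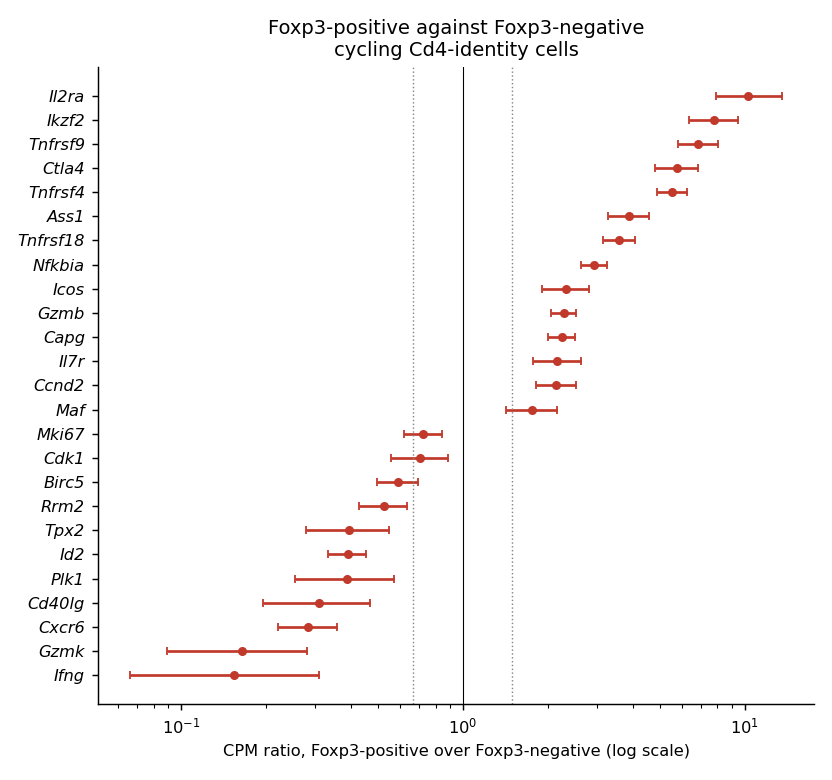
CPM ratio (log scale) of Foxp3-positive over Foxp3-negative cycling Cd4-identity cells for 25 genes, with 95% counting intervals and dotted lines at a ratio of 1.5 either way. Il2ra is highest of those shown at 10.3, Ifng lowest at 0.155, and Mki67 lies at 0.725, inside the lines.

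Cell cycle genes also differed within the members. Of the mitosis list 37 of 74 tested genes were lower in Foxp3-positive cycling cells and none higher, with a median log2 ratio of −0.58, and of the histone list 6 of 8 were lower. Plk1, the polo-like kinase of mitosis, had 49.6, 81.5, 40.7 and 61.5 CPM in Foxp3-positive and 152, 132, 149 and 133 CPM in Foxp3-negative cells of numbers 1 to 4. It was lower in all 4 numbers, at a ratio of 0.389 (0.254 to 0.572). The Foxp3-positive cells held more cells near the threshold. Among cells with at least 4 rule UMIs the difference was smaller, with 8 of 73 mitosis genes lower and a median of −0.18. Of all genes tested among these cells, 118 of 1846 were lower, with a median of −0.02. In those cells the mitosis sum was 28749 CPM in Foxp3-positive and 32428 CPM in Foxp3-negative cells, and the replication sum 5332 CPM in Foxp3-positive and 5366 CPM in Foxp3-negative cells. Il2ra and Gzmk kept their sizes there, at ratios of 11.5 and 0.164, but not every gene did. Gzmb was at 1.55 there, and Il7r at 1.47, which is below the size rule. Both were nearer to level than among all cycling cells.

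The Foxp3-positive cycling cells also had more signs of other cell types. MHC class II genes, which antigen-presenting cells express, were higher in 5 of 5 cases. Of the H2-Aa UMIs of Foxp3-positive cycling cells, 88.8% lay in 3 cells. Without Ctss, at least 2 UMIs over the markers of other types were found in 18 of 62 Foxp3-positive cells (29.03%) and in 16 of 276 Foxp3-negative cells (5.80%). Without those cells, the Il2ra ratio was 11.7, that of Cd74 was 7.09 (5.84 to 8.61), that of H2-Aa was 4.102 (1.598 to 9.86), that of H2-Ab1 was 2.56 (1.46 to 4.32) and that of H2-Eb1 was 1.17 (0.295 to 3.38).

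Cycling and other cells were also set side by side within each Foxp3 state. The rule fixes the direction of the mitosis genes. In Foxp3-positive cells, 24 of 25 tested mitosis genes were higher in cycling than in other cells, where 8.57% of 1937 genes were higher and 10.1% lower. In Foxp3-negative cells 73 of 75 mitosis genes were higher, where 11.6% of 5296 genes were higher and 9.59% lower. Il7r was 299 CPM in cycling and 518 CPM in other Foxp3-positive cells, and 138 CPM in cycling and 487 CPM in other Foxp3-negative cells. Gzmb differed in direction between the states, with 1094 CPM in cycling and 2052 CPM in other Foxp3-positive cells, and 480 CPM in cycling and 272 CPM in other Foxp3-negative cells. Of the CD8 lineage and cytotoxic list, none of 9 genes was higher and 5 were lower in cycling Foxp3-positive cells, and 4 of 17 were higher and 1 lower in cycling Foxp3-negative cells. These differences between states have no replicate and were not tested. Ctla4 was nearly level in each state, with 568 CPM in cycling and 545 CPM in other Foxp3-positive cells. Tfrc was higher in cycling cells of both states, by 3.64-fold in Foxp3-positive and 3.59-fold in Foxp3-negative cells.

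Set against the 546 cycling cells of Cd8 identity, the Cd4-identity members were chosen by the same rule on cell cycle genes. By the size rule 157 of 4741 genes were higher in cycling Cd4-identity cells (3.31%) and 104 lower (2.19%). None of 51 replication genes was called and 1 of 119 mitosis genes was lower. Histone genes were the exception in part, with 6 of 19 lower, and Hist1h2ae had 707 CPM in cycling Cd4-identity and 1228 CPM in cycling Cd8-identity cells. Lineage genes were among those that differed. Cd40lg, the helper signal to B cells and dendritic cells, had 142, 118, 112 and 152 CPM in cycling Cd4-identity and 50.8, 24.1, 14.7 and 19.3 CPM in cycling Cd8-identity cells of numbers 1 to 4. Maf, a factor of helper and regulatory T cells, had 167 CPM in cycling Cd4-identity and 37.3 CPM in cycling Cd8-identity cells. Eomes, a factor of cytotoxic T cells, had 9.15 CPM in cycling Cd4-identity and 43.0 CPM in cycling Cd8-identity cells.

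Glycolysis and hypoxia genes were higher in cycling Cd4-identity cells in 12 of 17 cases, with a median log2 ratio of 0.64. Slc16a3, which exports lactate, had 98.9, 92.9, 135 and 86.6 CPM in cycling Cd4-identity and 41.6, 63.2, 17.9 and 51.0 CPM in cycling Cd8-identity cells of numbers 1 to 4. Each number was higher in Cd4-identity cells, and the ratio was 2.38 (1.97 to 2.88). The regulatory T cell list had 9 of 12 higher and the CD8 and cytotoxic list 13 of 20 lower, which follows the identity used to choose the groups. The share of cells that met the rule was 13.2% (11.9 to 14.5) of Cd4-identity and 18.2% (16.9 to 19.7) of Cd8-identity cells. With all cells thinned to 2000 UMIs it was 9.21% of Cd4-identity and 14.2% of Cd8-identity cells.

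The genes that went with cycling overlapped between the identities. In Cd8-identity cells 763 of 6981 genes were higher in cycling cells (10.9%) and 724 lower (10.4%). Of 6007 genes tested in both, 500 were higher in cycling cells of both, which is 75.6% of the 661 higher in Cd4-identity and 79.7% of the 627 higher in Cd8-identity cells. The same rule on cell cycle genes chose the cycling cells of both identities. Shared higher calls of cell cycle genes thus follow from the rule in part and are no separate evidence. How many of the 500 lay outside the cell cycle lists is not given here. The comparisons share no cells, but their cells came from 1 library. Lower genes overlapped less, with 246 in both, 45.6% of those of Cd4-identity and 49.4% of those of Cd8-identity cells. No gene was lower in cycling cells of Cd4 identity and higher in those of Cd8 identity, and 13 went the opposite way. These included Myc, the growth factor-induced transcription factor, with 38.7 CPM in cycling and 20.3 CPM in other Cd4-identity cells, and 18.5 CPM in cycling and 42.7 CPM in other Cd8-identity cells. With the rule applied to thinned counts, the Myc log2 ratio of 0.93 in Cd4-identity cells turned to −0.38. Cdkn1a was the same in kind, at 1.75-fold in Cd4-identity and 0.458-fold in Cd8-identity cells. Weighted by depth, the Cd4-identity log2 ratios of Cdkn1a and Il1r2, also among the 13, turned to −0.92 and −0.82. Ccl1, Ccl3, Ccl4, Xcl1 and Spp1 were among the 13 too. Leaving out the 10 chemokine-rich cycling cells, which can only lower their Cd4-identity ratios, gave 0.685, 0.509, 0.683, 0.930 and 0.756. Gzmb had 589 CPM in cycling and 699 CPM in other Cd4-identity cells, and 601 CPM in cycling and 278 CPM in other Cd8-identity cells.

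**Figure D5:**
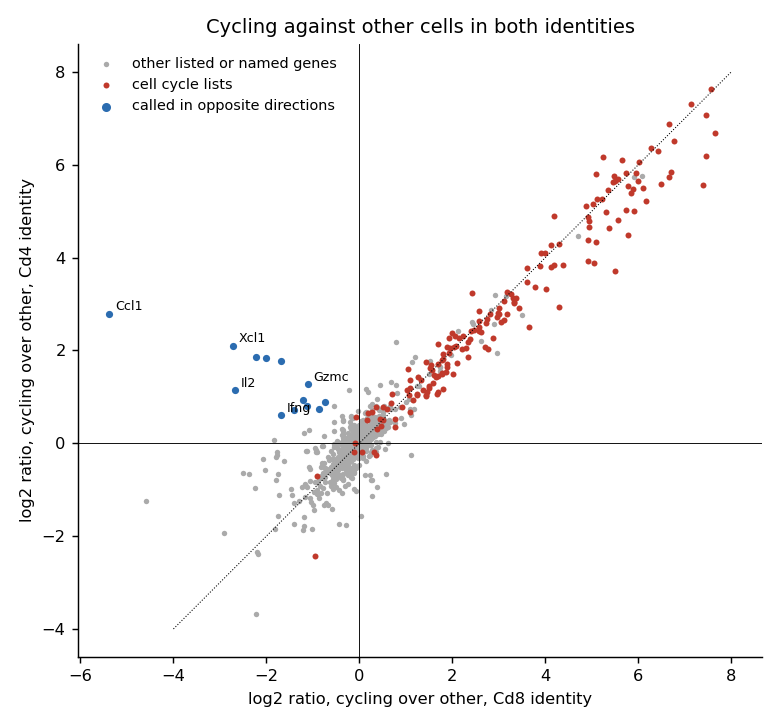
Log2 ratio of CPM in cycling over other cells, Cd4 identity on the vertical and Cd8 identity on the horizontal axis, for listed or named genes. The same rule on cell cycle genes chose the cycling cells of both identities. Red points are cell cycle genes, which lie along the dotted line of equal ratios, and blue points are the 13 genes higher in cycling Cd4-identity and lower in cycling Cd8-identity cells, 5 of them named. Without the 10 chemokine-rich cycling cells, the Cd4-identity ratios of Ccl1 and Xcl1 were 0.685 and 0.930.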

How the data were processed

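The deposited table holds counts, as UMIs per gene and cell, for 14811 genes and 5564 cells, beside the authors' cell annotation. Per the submitters' processing notes, the authors worked with mm10, with Cell Ranger (version 3.1.0) and with Seurat (version 3.2.3). The hashtag and T cell receptor libraries were not analysed here. The members and gene lists were chosen with earlier results of these data known.

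UMIs were summed per group and divided by the group total without 117 receptor and immunoglobulin genes (0.325% of UMIs) to give CPM. A gene was tested with at least 200 UMIs over both groups and called at a ratio of at least 1.5 either way, without a p-value. Totals were 2850684 UMIs in cycling and 8457273 in other Cd4-identity cells. Ratio intervals are exact conditional binomial and share intervals Clopper-Pearson, both at 95%. They cover counting error only. Named genes were the 12 highest and 12 lowest ratios at 20 CPM or more, for each list the 2 top and 2 bottom ratios, the rule genes, Foxp3, Cd4 and Cd8 chains. Pcna, Ccnb1, Tcf7 and other genes outside this rule were chosen after their values were seen. No doublet caller was run, and 0 barcodes were duplicated. Cells with 2 Trbv genes or UMIs of other cell types were left out in alternatives. Thinning drew 2000 UMIs per cell and left out 421 of the 5564 cells. Promoters came from a RefSeq table (GRCm38.p6), which matched 13 of 16 genes wanted for printing. Python 3.11.15, numpy 2.4.6, scipy 1.17.1, pandas 2.3.3, R 4.3.3 and edgeR 4.0.16 (TMM factors only) were used. The code was tested on simulated data.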

Additional observations from a re-analysis of the deposited data

How the results depend on the processing

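No paired analysis was possible because the library was a single pool and the result comes from no test. The count of genes at least 1.5-fold higher in cycling than in other Cd4-identity cells (662) and lower (570) followed the minimum of UMIs, with 1215 higher and 1230 lower at 50, 341 and 276 at 500, and 2080 and 2142 at 1. Thinned to 2000 UMIs it was 307 higher and 281 lower, with the rule also on thinned counts 343 and 369, with a rule of 1 UMI 422 and 151, and in Foxp3-positive cells alone 166 and 196. By hashtag number it was 237 and 266 in number 2, 53 and 73 in number 3, 141 and 157 in number 4, and 416 higher without number 1, where fewer cells leave fewer genes to test. TMM scaling, leaving the cell cycle lists out of the total, and leaving out Tdp cells or cells with 2 Trbv genes moved neither count by 1.5 times.

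The Foxp3 share of cycling cells (18.3%) was 13.6% with at least 2 Foxp3 UMIs, 10.9% thinned, 8.84% with the rule thinned too, 11.7% with a rule of 4 UMIs, 8.52% without cells with UMIs of other types, 13.9% without hashtag number 1, 13.3% in number 2 and 12.7% in number 4. The cycling share of Cd4-identity cells (13.2%) was 28.6% with a rule of 1 UMI, 9.30% with 4, 9.21% thinned, 11.7% without number 1, 14.8% without number 2, and 14.9%, 9.46% and 16.6% in numbers 1, 2 and 3. Genes higher in Foxp3-positive against Foxp3-negative cycling cells (137) numbered 593 at 50 UMIs, 43 at 500 and 29 thinned. Genes higher in cycling Cd4-identity against cycling Cd8-identity cells (157) numbered 516, 71 and 61 under the same settings and 89 without cells with UMIs of other types.

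Of 90 genes followed over 28 alternatives, 81 never reversed. Ccl3 and Ccl4 were not among the 90. Without the 10 chemokine-rich cycling cells their ratios went from 3.41 and 3.57 to 0.509 and 0.683. Alternatives that changed only the minimum of UMIs could not alter the ratio of a gene, so their values were unchanged by construction. Of all 2517 values, 1983 stayed the same and 517 moved without reversing. The other 17 reversed. These log2 ratios were, for Spp1, −4.08 in Foxp3-positive cells, −0.9998 without number 1, −1.02 in number 2, −1.05 in number 4, −0.66 with other cells weighted by depth and −0.40 without the 10 chemokine-rich cells. Without those cells Ccl1 was at −0.55 and Xcl1 at −0.10. Scd2 was at −0.15 in Foxp3-positive cells, −0.27 in number 2 and −0.15 weighted by depth. Weighting by depth also gave −0.92 for Cdkn1a and −0.82 for Il1r2. Myc was at −0.38 with the rule thinned, Gpr146 at 0.062 in number 3, and H2-Aa at 0.13 without cells with UMIs of other types and 0.72 with Ctss not counted among these. The causes were not tested. Foxp3 and the other genes of 1 UMI or less per cell are limited by depth.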

Other observations

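The T cell receptor beta segments in the gene counts, which were kept out of all totals, differed in how often they were found. A Trbv29 UMI was found in 40 of 338 cycling Cd4-identity cells, 11.8% (8.59 to 15.8), and in 110 of 2232 other Cd4-identity cells, 4.93% (4.07 to 5.91). Trbv13-2 was found in 17.8% of cycling and 12.01% of other cells. Trbv1 went the other way, with 5.62% (3.42 to 8.64) of cycling and 9.77% (8.57 to 11.1) of other cells. Cycling cells held more UMIs per cell, and 10 mice were pooled, so the share of depth and of single mice in these values was not tested.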
